A study of Mus musculus with 2 samples.

Results

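Wnt feedback and LGR target genes were examined in prostate tumours of mice. The group consists of 10 genes, found by symbol among the 27376 genes of the count table: Axin2, Nkd1, Nkd2, Rnf43, Znrf3, Lgr4, Lgr5, Lgr6, Sp5 and Ascl2. They were chosen by name for their place in the pathway, with earlier results of these data known. RNA sequencing of fresh tumour tissue gave 1 library from the genotype Met_Bcat and 1 from the genotype Bcat_Only, both from prostate at 16 months after birth. By its name Met_Bcat combines MET, the receptor of hepatocyte growth factor, with altered beta-catenin, and Bcat_Only carries the beta-catenin change alone. The column heading of Bcat_Only reads Bcat_ex3Plus_PB_Cre, after an allele of a beta-catenin exon and a Cre driven by PB, whereas no allele stands in the heading of Met_Bcat. Cre lines abbreviated PB use the probasin promoter, which is active in prostate epithelium. Loss of the exon that carries the degradation signal stabilises beta-catenin. The sources used here do not say which MET allele Met_Bcat carries or whether a library holds 1 animal or a pool.

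Wnt ligands that bind Frizzled receptors and the LRP5 and LRP6 co-receptors stop the destruction complex from degrading beta-catenin, which then switches on target genes together with TCF and LEF factors. Several targets feed back on the pathway. AXIN2 rebuilds the destruction complex inside the cell, NKD1 and NKD2 bind Dishevelled, and the ubiquitin ligases RNF43 and ZNRF3 remove Frizzled from the cell surface. The receptors LGR4, LGR5 and LGR6 bind R-spondins and, with them, hold those ligases back. SP5 and ASCL2 are transcription factors downstream of the pathway, and LGR5 and ASCL2 are known as markers of intestinal stem cells.

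The libraries held 20117724 reads assigned to genes in Met_Bcat and 19301062 in Bcat_Only. Since each genotype has 1 library, nothing could be tested between genotypes: each comparison below sets these libraries side by side, and each interval covers counting error only. Levels are CPM on TMM-scaled library sizes, and levels of different genes are compared as CPM per kb of exon. Ratios are Met_Bcat over Bcat_Only with a 95% exact interval. A gene was called higher or lower when even the end of the interval closer to a ratio of 1 was 2-fold or more, among the 14354 genes whose mean level reached 1 CPM. The labels describe no sorting of cells. All 17 pan-epithelial markers were detected in both libraries, at a summed 5072 CPM in Met_Bcat and 4209 CPM in Bcat_Only. All 12 fibroblast markers were detected too, at a summed 1051 CPM in Met_Bcat and 25136 CPM in Bcat_Only, and 11 of them were called lower. Fewer cells of a type and less RNA per cell cannot be told apart in such samples.

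Of the 10 genes, 9 passed the minimum of 1 CPM. Of these 9, 1 was called higher in Met_Bcat and 0 lower, against 4.42% of all genes considered that were called higher and 14.6% called lower. Lgr6 was the gene called higher. The intervals of 5 genes (Axin2, Nkd1, Znrf3, Lgr4 and Lgr6) lay wholly above a ratio of 1, which 37.8% of all genes did, and those of 4 (Nkd2, Rnf43, Lgr5 and Sp5) wholly below, which 36% did. With total counts as library sizes the Rnf43 interval spanned a ratio of 1, which left 3. The median log2 ratio of the 9 genes was 0.30 on CPM plus 0.5, and that of all genes considered was 0.030 with quartiles of −0.53 and 0.33. Summed over the 10 genes the level was 1599 CPM in Met_Bcat and 1319 CPM in Bcat_Only. Axin2 and Nkd1 together made up 59.4% of this sum in Met_Bcat and 54.1% in Bcat_Only.

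**Figure D1:**
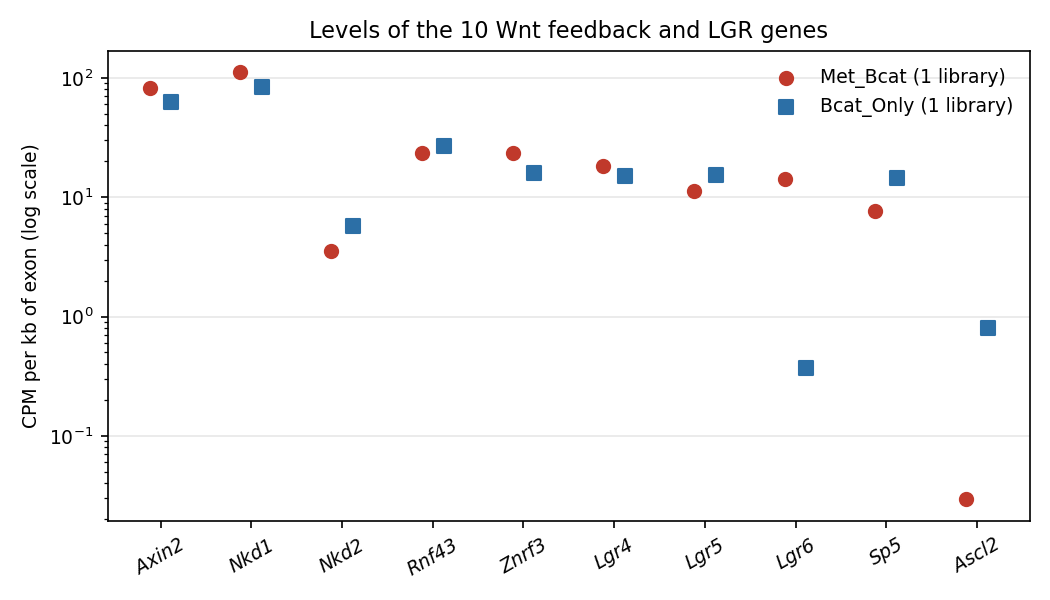
Level of each gene in CPM per kb of exon on a log axis, with circles for the Met_Bcat library and squares for the Bcat_Only library. Nkd1 and Axin2 stand highest in both libraries, and the widest gaps are those of Lgr6, at 14.3 in Met_Bcat against 0.371 in Bcat_Only, and Ascl2, at 0.029 in Met_Bcat against 0.808 in Bcat_Only.

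Per length, Nkd1 was the most abundant of the 10 genes in both libraries, at 112 CPM per kb in Met_Bcat and 83.3 in Bcat_Only, and Axin2 came next at 82.0 in Met_Bcat and 62.1 in Bcat_Only. Rnf43 followed in both. In Met_Bcat the level of Rnf43, 23.5 CPM per kb (exact Poisson interval 22.7 to 24.4), overlapped that of Znrf3, 23.3 (22.5 to 24.0). The order then ran through Lgr4, Lgr6, Lgr5, Sp5 and Nkd2 to Ascl2, without overlap between neighbours. In Bcat_Only Znrf3, Lgr5, Lgr4 and Sp5 lay between 15.8 and 14.5 CPM per kb, and the interval of each overlapped that of the next. Nkd2, Ascl2 and Lgr6 were the lowest there, with Lgr6 in last place, and the intervals of Ascl2 and Lgr6 overlapped.

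Axin2, the scaffold of the destruction complex that is itself a beta-catenin target (ENSMUSG00000000142, mm9 chromosome 11, 108781663 to 108812097, plus strand), had 9519 reads or 452 CPM in Met_Bcat and 6303 reads or 342 CPM in Bcat_Only. It was 32.0% higher in Met_Bcat (27.9% to 36.3%), which is below the 2-fold rule. Of all genes considered, 21.3% had a larger ratio. Its level per length exceeded that of 96.3% of genes in Met_Bcat and of 94.1% in Bcat_Only.

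Nkd1, a Dishevelled-binding inhibitor (ENSMUSG00000031661, chromosome 8, 91045243 to 91118786, plus strand), differed by nearly the same proportion. It had 10493 reads or 498 CPM in Met_Bcat and 6847 reads or 372 CPM in Bcat_Only, 34.0% higher (29.9% to 38.1%). The ratio of Nkd1 to Axin2 reads needs no scaling of the libraries, and it differed 1.01-fold between them (exact interval 0.971 to 1.06). Its paralogue Nkd2 (ENSMUSG00000021567, chromosome 13, 73955982 to 73985079, minus strand) went the other way, with 353 reads or 16.7 CPM in Met_Bcat and 503 reads or 27.3 CPM in Bcat_Only, 1.63-fold lower (1.42 to 1.87). Set against Nkd1 within each library, Nkd2 was 2.18-fold lower in Met_Bcat (1.90 to 2.52). Nkd2 was the minor member of the pair throughout, at 3.08% of their summed level per length in Met_Bcat and 6.48% in Bcat_Only.

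The ligases that clear Frizzled from the membrane also differed from each other. Znrf3 (ENSMUSG00000041961, chromosome 11, 5176327 to 5344850, minus strand) had 3871 reads or 184 CPM in Met_Bcat and 2299 reads or 125 CPM in Bcat_Only, a ratio of 1.47 (1.40 to 1.55). Rnf43 (ENSMUSG00000034177, chromosome 11, 87476224 to 87549041, plus strand) had 3254 reads or 154 CPM in Met_Bcat and 3229 reads or 175 CPM in Bcat_Only, 1.14-fold lower (1.08 to 1.19). The level of Rnf43 relative to Znrf3 was 1.01 per length in Met_Bcat and 1.69 in Bcat_Only, a 1.67-fold difference (1.56 to 1.79) that does not depend on the scaling. Summed, the ligases stood at 46.8 CPM per kb in Met_Bcat and 42.5 in Bcat_Only. Rnf43 overlaps the gene 1110028F11Rik on the same strand in the table, which had 92 reads in Met_Bcat and 142 in Bcat_Only.

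The make-up of the LGR receptors differed most between the libraries. Lgr4, the broadly expressed receptor (ENSMUSG00000050199, chromosome 2, 109757804 to 109854414, plus strand), had 2280 reads or 108 CPM in Met_Bcat and 1617 reads or 87.8 CPM in Bcat_Only, 23.3% higher (15.6% to 31.4%). Lgr5, the stem cell marker (ENSMUSG00000020140, chromosome 10, 114887367 to 115024836, minus strand), had 2438 reads or 116 CPM in Met_Bcat and 2891 reads or 157 CPM in Bcat_Only, 1.36-fold lower (1.28 to 1.43). Relative to Lgr4 within each library, Lgr5 was 1.67-fold lower in Met_Bcat (1.54 to 1.82).

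Lgr6, known as a marker of stem cells in hair follicle and skin (ENSMUSG00000042793, chromosome 1, 136882925 to 137001853, minus strand), had 1147 reads or 54.4 CPM in Met_Bcat and 26 reads or 1.41 CPM in Bcat_Only. The ratio was 38.6 (26.2 to 59.3), and 48 of the 14354 genes considered, 0.334%, had a larger one. Relative to Lgr5 it was 52.3-fold higher in Met_Bcat (35.3 to 80.7), and relative to Axin2 29.2-fold (19.8 to 45.0). Per length, Lgr6 exceeded 69.5% of all genes considered in Met_Bcat and 3.18% in Bcat_Only.

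Summed over the LGR genes the level was 44.0 CPM per kb in Met_Bcat and 30.6 in Bcat_Only, while Lgr4 and Lgr5 alone summed to 29.7 in Met_Bcat and 30.2 in Bcat_Only. Lgr6 held 32.5% of the full sum in Met_Bcat and 1.21% in Bcat_Only. Lgr5 held 25.6% in Met_Bcat and 50.0% in Bcat_Only.

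**Figure D2:**
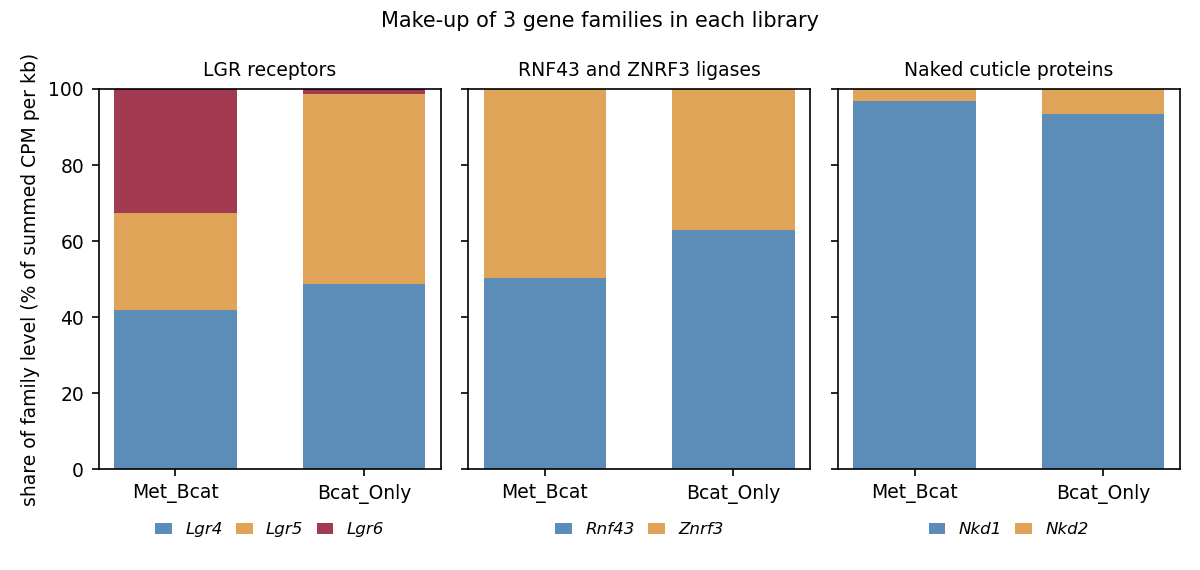
Share of each gene in the summed level per length (% of CPM per kb) of its family, with the Met_Bcat library left of the Bcat_Only library in each panel. Lgr6 takes 32.5% of the LGR level in Met_Bcat against 1.21% in Bcat_Only, Znrf3 takes 49.7% of the ligase level in Met_Bcat against 37.2% in Bcat_Only, and Nkd2 takes 3.08% of the level of its pair in Met_Bcat against 6.48% in Bcat_Only.

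Markers of epithelial cell types are given beside Lgr6, with 4.42% of all genes considered called higher and 14.6% lower for comparison. Of 15 squamous markers considered, 10 were called higher in Met_Bcat and 1 lower, at a summed 398 CPM over all 18 in Met_Bcat and 147 CPM in Bcat_Only, where Sprr3 was at 0. The 10 basal markers, 3 of them called higher and 1 lower (Krt15), summed to 2428 CPM in Met_Bcat and 1270 CPM in Bcat_Only. The 17 hair follicle markers, 8 of them considered, with 3 called higher and 2 lower, summed to 1061 CPM in Met_Bcat and 548 CPM in Bcat_Only, where Hoxc13 and Krt25 were at 0. Gata3 alone gave 815 CPM of that sum in Met_Bcat and 260.0 CPM in Bcat_Only. The other 16 markers summed to 246 CPM in Met_Bcat and 288 CPM in Bcat_Only, of which Tchh gave 67.7 CPM in Met_Bcat and 181 CPM in Bcat_Only. Of the 8 considered, 6 had a ratio above 1, Gata3 among them, and the 2 called lower were Nfatc1 and Tchh. The luminal prostate markers, 5 of 11 called higher and 1 lower, summed to 7134 CPM in Met_Bcat and 3481 CPM in Bcat_Only, a ratio of 2.05 beside 2.70 for the squamous and 1.91 for the basal markers. The part of these cells in the Lgr6 difference was not tested.

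Sp5, a zinc finger factor downstream of the pathway (ENSMUSG00000075304, chromosome 2, 70312980 to 70315786, plus strand), had 338 reads or 16.0 CPM in Met_Bcat and 561 reads or 30.5 CPM in Bcat_Only. It was 1.90-fold lower (1.66 to 2.18), so that the interval reached past 2-fold but its near end did not. Relative to Axin2 it was 2.51-fold lower (2.18 to 2.89). Its relative Sp8 was called higher at 118 CPM in Met_Bcat and 38.4 CPM in Bcat_Only, a ratio of 3.07 (2.83 to 3.35).

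Ascl2, a basic helix-loop-helix factor of intestinal stem cells (ENSMUSG00000009248, chromosome 7, 150152727 to 150155169, minus strand), was close to the detection limit. It had 1 read in Met_Bcat and 24 reads or 1.30 CPM in Bcat_Only, 27.5-fold lower with a counting interval of 4.48 to 1129. Its mean of 0.675 CPM fell below the minimum, so it stands outside the counts above. With no minimum it was the 1 gene of the 10 called lower, beside 2432 of all 19883 genes then considered. Its family member Ascl4 was called higher, with 91 reads in Met_Bcat and 16 in Bcat_Only, a ratio of 4.97 (2.90 to 9.06).

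**Figure D3:**
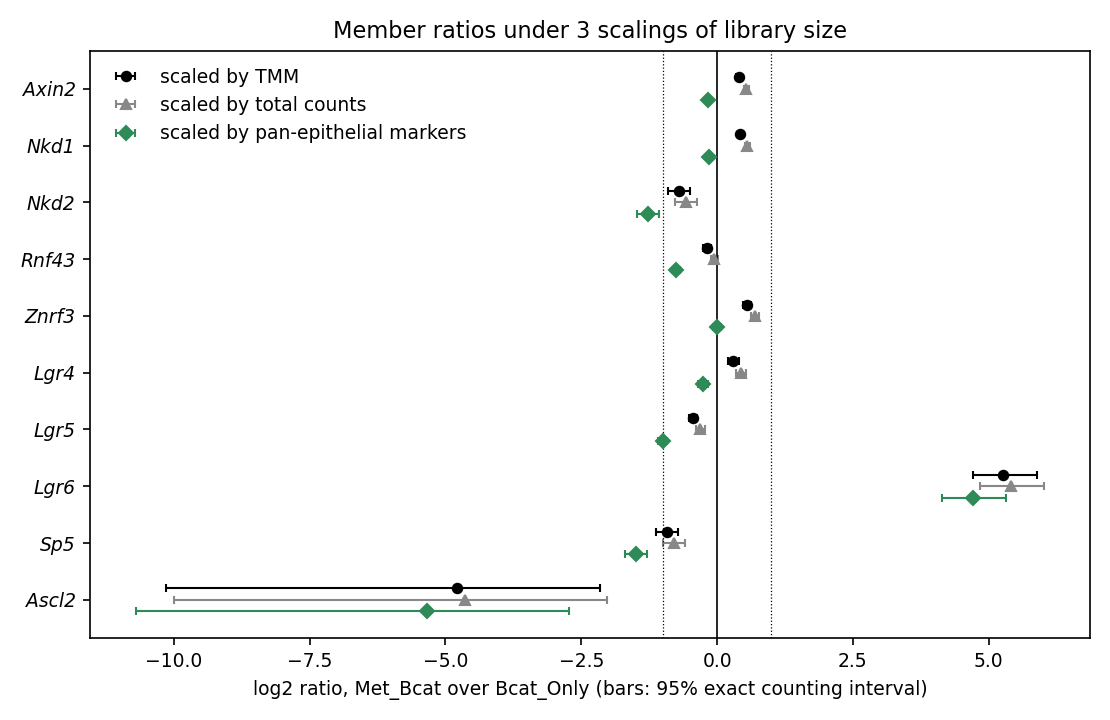
Log2 ratio of each gene, Met_Bcat over Bcat_Only, with 95% exact counting intervals, under 3 scalings of library size. Dotted lines mark 2-fold. Lgr6 lies far to the right and Ascl2 far to the left under each scaling, whereas Axin2, Nkd1, Znrf3 and Lgr4 lie right of 0 with TMM and left of it when scaled to pan-epithelial markers.

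The direction of the smaller positive differences rested on the scaling. With TMM, total counts, DESeq2 size factors and upper quartile, the intervals of Axin2, Nkd1, Znrf3 and Lgr4 lay above a ratio of 1. This did not hold when scaled to the pan-epithelial markers. Under all 5 scalings Nkd2, Rnf43, Lgr5, Sp5 and Ascl2 stayed below a ratio of 1, though the Rnf43 interval spanned 1 with total counts. Taking library size as total counts raised every log2 ratio by 0.13. The 17 pan-epithelial markers were not uniform. With TMM 12 of them had a ratio above 1, and the log2 ratios of the 17 ran from −1.14 for Cldn7 to 0.91 for Prss8. Scaling to these markers, which sets their median to 0, moved every log2 ratio by −0.56, since that median was 0.56 with TMM. Axin2 then had a log2 ratio of −0.16, Nkd1 −0.14, Lgr4 −0.26 and Znrf3 −0.0067, the last with an interval that spans 0. Under this scaling 2 of the 9 genes were called lower, Sp5 at −1.49 and Nkd2 at −1.27. Of all 14141 genes considered under it, 3175 were called lower and 323 higher. Among the 9, Lgr6 was the 1 gene with a ratio above 1 there, at 4.70 on the log2 scale. Differences between genes within a library do not move with the scaling.

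Promoter sequence was looked up for the 10 genes, since TCF and LEF factors bind DNA with the core CTTTG. RefSeq promoters on GRCm38.p6 were found for 8 of them, not for Znrf3 and Lgr5, and the 250 bases before each start were searched on both strands. Those of Sp5, which holds the core, of Axin2, the scaffold gene, and of Lgr6, the member with the highest ratio, are shown 5′ to 3′. Each match is in capitals, in either orientation. Sequence outside these windows was not searched. The capitals mark the core and, where they follow it, the bases of the longer motif CTTTGAT. The motif CTTTGAA was searched as well. The Sp5 stretch is chr2:70474673-70474922 on the plus strand, that of Axin2 chr11:108920099-108920348 on the plus strand and that of Lgr6 chr1:135105277-135105526 on the minus strand.
Sp5: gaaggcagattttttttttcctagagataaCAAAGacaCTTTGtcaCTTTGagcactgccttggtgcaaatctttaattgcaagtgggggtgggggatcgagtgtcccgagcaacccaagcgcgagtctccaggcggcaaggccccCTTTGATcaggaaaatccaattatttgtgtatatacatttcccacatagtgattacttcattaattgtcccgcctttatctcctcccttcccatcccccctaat
Axin2: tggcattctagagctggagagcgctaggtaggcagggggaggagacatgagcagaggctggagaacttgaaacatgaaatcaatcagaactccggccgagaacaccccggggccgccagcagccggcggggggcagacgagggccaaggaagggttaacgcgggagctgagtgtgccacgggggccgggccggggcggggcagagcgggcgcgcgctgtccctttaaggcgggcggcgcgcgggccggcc
Lgr6: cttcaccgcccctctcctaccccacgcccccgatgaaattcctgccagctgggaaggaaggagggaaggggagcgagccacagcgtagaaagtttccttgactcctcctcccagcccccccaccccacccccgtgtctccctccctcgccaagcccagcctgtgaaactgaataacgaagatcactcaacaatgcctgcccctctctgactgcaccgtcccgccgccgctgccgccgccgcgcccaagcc

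Sp5 held 4 copies of CTTTG, 1 of them within CTTTGAT, and was the 1 gene of the 8 with a match. Over all 32851 promoters, 48.6% held CTTTG in the same window, 3.21% held CTTTGAT and 4.46% held CTTTGAA. Of the 7 genes without a match in this window, Axin2, Nkd1, Lgr4 and Lgr6 were higher in Met_Bcat and Nkd2, Rnf43 and Ascl2 lower, as Sp5 was. GC content of the shown stretches was 46.0% for Sp5, 69.2% for Axin2 and 65.2% for Lgr6.

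The wider pathway was described from lists of related genes. Of 20 other Wnt targets 17 were considered, 6 of them called higher and 2 lower, with a median log2 ratio of 0.69. Over all genes considered, 4.42% were called higher and 14.6% lower, with a median of 0.030. These values are on TMM, and scaling to the pan-epithelial markers moved every log2 ratio by −0.56. Dkk1, which blocks the LRP co-receptors, had 177 reads in Met_Bcat and 3 in Bcat_Only, a ratio of 51.6 (17.4 to 252). The growth factor gene Fgf20 had 108 reads in Met_Bcat and 1 in Bcat_Only, a ratio of 94.4 (16.6 to 3763). Ephb2, an ephrin receptor of intestinal crypts, was 7.98-fold lower (6.49 to 9.88), at 4.98 CPM in Met_Bcat and 39.7 CPM in Bcat_Only.

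The R-spondins, ligands of the LGR receptors, were scarce in Met_Bcat. Of the 4 genes 2 were considered, Rspo3 and Rspo1, and both were called lower, beside 14.6% of all genes considered. Rspo3 had 2 reads there and 451 in Bcat_Only, 258-fold lower (71.0 to 2137). Rspo1 had 14 reads in Met_Bcat and 220 in Bcat_Only, 18.0-fold lower (10.5 to 33.4). Rspo4 had 6 reads in Met_Bcat and 7 in Bcat_Only, and Rspo2 had 0 in Met_Bcat and 2 in Bcat_Only. Summed, the R-spondins stood at 1.04 CPM in Met_Bcat and 36.9 CPM in Bcat_Only. With TMM the library with the higher LGR sum was thus the one with fewer R-spondin reads. The order of the LGR sums rests on the scaling. It does not hold when scaled to the pan-epithelial markers, which moved every log2 ratio by −0.56. Fibroblast markers were 23.9-fold lower in sum in the same library, and their part in the R-spondin values was not tested.

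The list of Frizzled genes and co-receptors includes the receptors that the ligases act on. Beside 4.42% of all genes called higher and 14.6% lower, 0 of the 14 considered were called higher and 1 lower. Their median log2 ratio was −0.14. The lower one was Ror1, a receptor of non-canonical Wnt signals, at 6.98 CPM in Met_Bcat and 37.8 CPM in Bcat_Only, 5.42-fold lower (4.53 to 6.52). Among 13 considered genes of Dishevelled and the destruction complex 0 were called in either direction, with a median of 0.22. Ctnnb1 itself, the beta-catenin gene, stood at 974 CPM in Met_Bcat and 981 CPM in Bcat_Only, and Axin1, the relative of Axin2 that is not a feedback target, at 75.8 CPM in Met_Bcat and 75.7 CPM in Bcat_Only. The 6 TCF factors and cofactors had a median of 0.30, and 0 were called.

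Other genes known from intestinal stem cells, as Lgr5 and Ascl2 are, were also measured. Of 7 considered, 3 were called lower and 0 higher, against 14.6% and 4.42% of all genes considered. The median log2 ratio was −0.53. A ratio above 1 was found for 2 of the 7, Olfm4 at 1.82 (1.73 to 1.91) and Msi1 at 2.11 (1.59 to 2.83), neither of them called. Smoc2, a matrix protein, was 13.1-fold lower (12.2 to 14.1), at 39.8 CPM in Met_Bcat and 521 CPM in Bcat_Only. Slc12a2, an ion transporter, was 3.16-fold lower (3.06 to 3.25), and Lrig1, an inhibitor of growth factor receptors, 3.03-fold (2.22 to 4.19). The fibroblast markers were lower in the same library, and their part in the Smoc2 value was not tested.

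Relatives of the LGR receptors and of SP5 and ASCL2 were measured as well. Of 5 other leucine-rich repeat receptors, 0 reached the minimum. Fshr and Lhcgr had 0 reads in both libraries, Tshr 0 in Met_Bcat and 7 in Bcat_Only, Rxfp1 6 in Met_Bcat and 8 in Bcat_Only, and Rxfp2 3 in Met_Bcat and 0 in Bcat_Only. Of 7 other SP and ASCL factors considered, 2 were called higher, Sp8 and Ascl4, and 0 lower, with a median log2 ratio of 0.20. Over all genes considered, 4.42% were called higher and 14.6% lower.

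**Figure D4:**
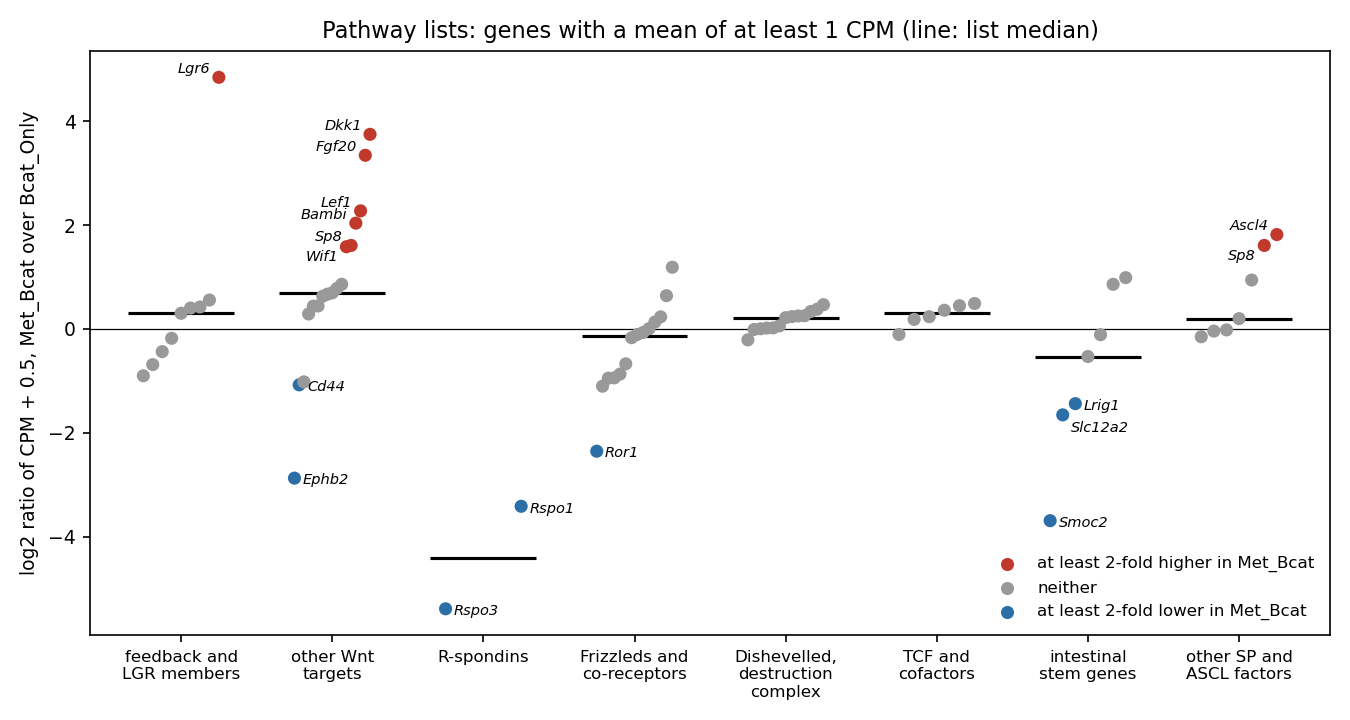
Log2 ratio of CPM plus 0.5, Met_Bcat over Bcat_Only, for each gene of 8 lists whose mean level reached 1 CPM. Points are genes, lines are list medians, and red and blue mark genes called higher and lower in Met_Bcat. The R-spondin median is the lowest at −4.40, and Lgr6 at 4.84 is the highest gene.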

How the data were processed

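Per the labels' protocols, total RNA of homogenised prostate tissue (200 ng) entered a stranded mRNA kit with 10 PCR cycles and was read as single-end reads of 51 bases. The authors deposited whole-number read counts per gene, with exon lengths in bases and mm9 coordinates. Tools in the submitters' processing notes are HTSeq, TopHat2 (version 2) and edgeR, with the build mm9. The strand setting is not given in the sources used here, so reads of genes overlapping on opposite strands (Gm11670 at Axin2, with 5 reads in Met_Bcat and 3 in Bcat_Only, and A930009A15Rik at Lgr5, with 1 read in each) cannot be told apart from those of the members. Columns were matched to samples through the sample number in the labels.

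TMM factors (edgeR 4.0.16, R 4.3.3) were 1.05 for Met_Bcat and 0.955 for Bcat_Only. Ratios carry exact Clopper-Pearson intervals given the summed reads, ratios between genes exact conditional ones, and levels exact Poisson ones (scipy 1.17.1). Reads without molecular identifiers are not independent molecules. The count of 0 allows up to 3 reads, worth 0.142 CPM in Met_Bcat and 0.163 CPM in Bcat_Only. The procedure was tested on simulated Poisson counts, which hold counting error only and so do not bear on variation between animals or in handling. Of the 51-base words in GENCODE transcripts of the 10 genes, 0 were shared between members and at most 2.05% per gene, for Sp5, with any other gene. All listed genes were found, 4 through the reference's gene identifiers.

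Members and lists were chosen with earlier results of these data known. All members are named, with up to 3 called genes per pathway list, 2 per cell type list and every gene of lists of 5 or fewer. Sp8 stands on the lists of Wnt targets and of SP and ASCL factors and is named from the SP and ASCL list. Ctnnb1 and Axin1, Gata3, Tchh, Nfatc1 and Krt15, Olfm4 and Msi1, and the hair follicle sum without Gata3, were added after their values were seen. So were the tuft cell markers Dclk1, Gfi1b, Avil and Trpm5. Of the cell type lists those beside a result are given in the report, and the remaining ones in the closing section. Alternatives were 4 other scalings, other minimum levels, other size rules and a pseudocount of 2 CPM.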

Additional observations from a re-analysis of the deposited data

How the results depend on the processing

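No paired analysis was possible because each genotype has 1 library, and for the same reason no replicate could be left out. Scaling to the pan-epithelial markers, chosen with earlier results in view, turned the median log2 ratio of the members to −0.26 and called 2 members lower. Of 14141 genes considered it called 323 higher and 3175 lower. Of these calls 90.8% were lower, against 76.8% with TMM (635 and 2102). With total counts the median was 0.43, and the intervals of 3 members lay wholly below a ratio of 1 in place of 4. With no minimum level, which lets Ascl2 in, the median was 0.059 and 1 member was called lower, beside 2432 of 19883 genes. A minimum of 10 CPM gave 356 genes higher and 1226 lower, and a 4-fold rule 251 and 1086. A 1.5-fold rule gave 1166 genes higher and 2828 lower and called 1 member lower, Sp5. Lgr6 was called higher under each alternative scaling, minimum and size rule. DESeq2 size factors and upper-quartile scaling left the members' counts of calls and the sign of their median as with TMM, calling on the ratio itself left the counts, and a pseudocount of 2 CPM, which bears on the median alone, gave 0.30. The 26 Lgr6 reads of Bcat_Only set the width of its interval, and 1 read of Ascl2 in Met_Bcat gives its ratio no firm size.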

Other observations

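Values of the other cell type lists are given for both libraries, since the tissue was whole. The 6 tuft cell markers summed to 66.4 CPM in Met_Bcat and 45.1 CPM in Bcat_Only, with Il25 at 0 in both. Pou2f3, the tuft cell factor, was called higher, with 803 reads in Met_Bcat and 25 in Bcat_Only, a ratio of 28.1 (18.9 to 43.7). It gave 38.1 CPM of the sum in Met_Bcat and 1.36 CPM in Bcat_Only. Dclk1, with 404 reads in Met_Bcat and 682 in Bcat_Only, and Gfi1b, with 2 and 23, were lower. Avil, with 168 reads in Met_Bcat and 89 in Bcat_Only, and Trpm5, with 23 and 12, were higher. Gfi1b and Trpm5 fell below the minimum of 1 CPM.

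Smooth muscle markers summed to 131 CPM in Met_Bcat and 782 CPM in Bcat_Only, endothelial markers to 330.0 CPM in Met_Bcat and 645 CPM in Bcat_Only. Schwann cell and nerve markers summed to 136 CPM in Met_Bcat and 335 CPM in Bcat_Only, and neuroendocrine markers to 2.75 CPM in Met_Bcat and 12.2 CPM in Bcat_Only. Macrophage markers summed to 636 CPM in Met_Bcat and 3480 CPM in Bcat_Only, and neutrophil markers to 771 CPM in Met_Bcat and 7140 CPM in Bcat_Only. B and plasma cell markers summed to 16.4 CPM in Met_Bcat and 518 CPM in Bcat_Only, T and NK cell markers to 35.2 CPM in Met_Bcat and 54.2 CPM in Bcat_Only, and seminal vesicle genes to 4.51 CPM in Met_Bcat and 6182 CPM in Bcat_Only. Elane, Svs3a, Svs3b and Svs6 were at 0 in Met_Bcat. Nkd2, Rnf43, Lgr5, Sp5 and Ascl2 were lower in the same library as these lists, and the part of these cells in their values was not tested.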
